A study of Mus musculus with 12 samples.

Results

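The genes of cholesterol synthesis, uptake and export were followed in the livers of 12 mice. The 35 members were chosen by name (mevalonate and sterol pathway enzymes, SREBP2 control, lipoprotein uptake and sterol movement, sterol export and storage), and each matched 1 row of a table of 48795 genes. RNAseq of liver RNA was done for 4 groups of 3 female mice, all 4 months old, on normal chow and from litters of heterozygous parents. In mice labelled NTS WT (Nts+/+), numbers 254, 257 and 323 ate ad libitum while 265, 282 and 322 went without food for 22 h. In mice labelled NTS KO (Nts-/-), numbers 277, 303 and 319 ate ad libitum while 284, 290 and 295 went without food for the same time. The knockout was of the whole body, so a liver difference need not start in the liver. Values per mouse are given below in this order. The depth was between 21999647 and 45273069 counts per library, and all 35 members had enough counts to be tested among 13812 genes.

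The genotype labels were first checked on *Nts* itself, which encodes neurotensin, a peptide of enteroendocrine cells and neurons. The 6 libraries labelled Nts+/+ had 0 counts on *Nts*, where a floor of 3 counts lies between 0.0833 and 0.136 CPM (counts scaled to the total of the library). Those labelled Nts-/- held 46, 40 and 15 *Nts* counts in the fed state, and 12, 4 and 18 after fasting, which is not the order the labels would give. Whether labels were exchanged or the knockout allele is still transcribed was not tested. The genotype is therefore given as labelled throughout, and a direction between genotypes is that of the labels. The tissue label held: *Alb*, *Ttr*, *Apoa2* and 3 other hepatocyte markers summed to between 115519 and 141437 CPM in every library, with the fed and the fasted groups overlapping. *Alb* made up most of this sum. *Ttr* had 5805 to 9120 CPM in fed and 3341 to 4396 in fasted livers, while *Cyp2e1* had 3348 to 6923 and 9695 to 12131. Of the 6 markers 1 was called higher and 2 lower in each genotype (edgeR), beside 18.1% (Nts+/+) and 16.8% (Nts-/-) of all genes called. Summed markers of 3 other liver cell types lay lower in every fasted than in every fed liver. The 5 sinusoidal endothelium markers summed to 129 to 190.4 CPM in fed and 101 to 128 CPM in fasted livers, and the 5 stellate cell markers to 227 to 311 and 197 to 218 CPM. The 5 cholangiocyte markers summed to 33.9 to 50.5 CPM in fed and 13.3 to 27.7 CPM in fasted livers. These sums leaned on few genes. *Spp1* made up most of the cholangiocyte sum (28.4 to 44.2 CPM in fed and 10.4 to 23.8 in fasted livers), and 1 of the 4 cholangiocyte markers tested was called, lower, in each genotype. *Clec4g* had 44.8 to 75.5 CPM in fed and 21.8 to 31.2 CPM in fasted livers, while *Lyve1*, of the same endothelial list, had 5.77 to 6.98 CPM in fed and 12.4 to 14.4 CPM in fasted Nts+/+ livers. Of the 5 endothelial markers 1 was called higher and 1 lower in Nts+/+, and 0 higher and 2 lower in Nts-/- libraries (edgeR). The 6 Kupffer cell markers summed to 415 to 495 CPM in fed and 195 to 357 CPM in fasted Nts+/+ livers, and overlapped in Nts-/- libraries (258 to 385 and 247 to 395 CPM). The 5 lymphocyte markers stayed between 4.20 and 7.78 CPM in all libraries. Markers of adipocytes, pancreas and intestine reached at most 0.45 CPM in sum, and *Retn*, *Cpa1*, *Pnlip* and *Sis* were at 0 in all 12 libraries. The part of these cells in the results below was not tested, and in whole liver fewer cells of a type cannot be told apart from less RNA per cell.

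Hepatocytes make cholesterol from acetyl-CoA through mevalonate, isoprenoid diphosphates, squalene and lanosterol. The genes of this route are switched on together by SREBP2, a transcription factor that is held in the endoplasmic reticulum as a precursor. SCAP escorts it to the Golgi apparatus for cleavage when membrane sterols are low, and the INSIG proteins retain SCAP when they are high. Surplus sterol is esterified, secreted into bile by the ABCG5/ABCG8 pair or loaded on lipoprotein particles, and oxysterols activate the nuclear receptor LXR, which induces these exporters. Hepatic cholesterol synthesis is known to be high in fed and low in fasted animals.

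Fasting lowered most of the synthesis genes in both genotypes. In livers labelled Nts+/+, 23 of the 35 members passed an adjusted *p* of 0.05 in the quasi-likelihood test of edgeR, with 21 lower and 2 higher. In the same contrast 18.1% of all 13812 genes passed (9.19% lower and 8.91% higher), against 65.7% of the members. In livers labelled Nts-/-, 27 members passed, 22 lower and 5 higher, and 16.8% of all genes did (9.14% lower and 7.7% higher), against 77.1% of the members. The median log2 fold change (fasted over fed) of the members was -1.39 in Nts+/+ and -2.15 in Nts-/- libraries, beside -0.0032 and -0.011 over all genes tested. These contrasts share no mice, but both were tested in the same fit over all libraries, with a shared estimate of the spread. All 23 members that passed in Nts+/+ libraries also passed in Nts-/- libraries in the same direction. The share of all genes that passed in both contrasts is not given beside this count. *Scap*, *Mylip*, *Abcg5* and *Abcg8* passed in Nts-/- libraries but not in Nts+/+ libraries. The difference between the genotypes did not pass for these 4 (edgeR adjusted *p* of 0.899 for *Scap* and 0.901 for the others). The 8 members that passed in neither were *Ggps1*, *Tm7sf2*, *Hsd17b7*, *Tmem97*, *Scarb1*, *Nr1h3*, *Abca1* and *Soat2*. Fed and fasted livers did not overlap for 7 members that were higher and 23 that were lower when fasted in Nts+/+ libraries, which is 85.7% of them, beside 36% of all genes (18.1% higher and 17.9% lower), and for 5 higher and 22 lower members in Nts-/- libraries, 77.1%, beside 35.2% (17.1% higher and 18.1% lower).

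**Figure D1:**
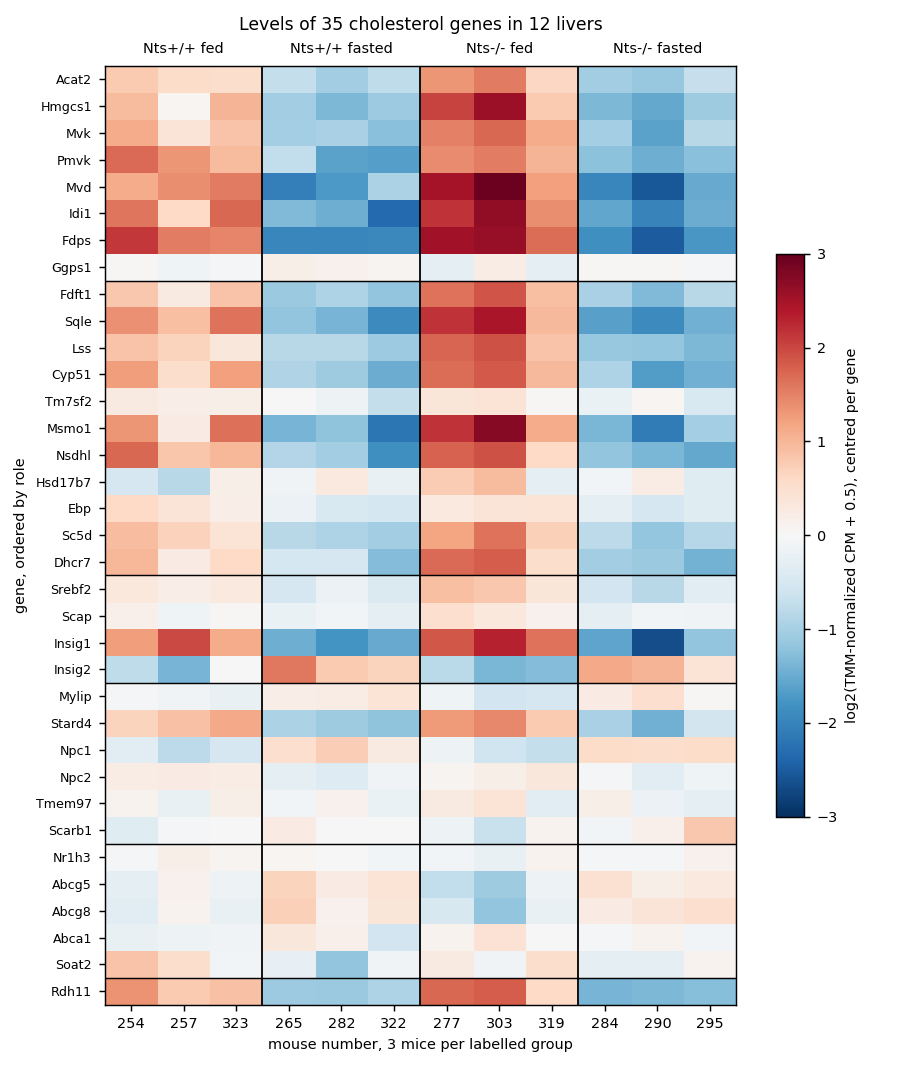
Level of each of the 35 genes (rows, ordered by role and divided by lines) in each of the 12 livers (columns, 3 mice per labelled group), as log2(TMM-normalized CPM + 0.5) minus the gene's mean over the 12 mice, on a colour scale from -3.0 (blue) to 3.0 (red). Most synthesis enzymes, *Insig1*, *Stard4* and *Rdh11* are red in fed and blue in fasted livers, *Insig2* and *Npc1* run the other way, and mice 277 and 303 hold the deepest red.

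Of the 8 genes of the early mevalonate pathway, 7 fell with fasting in both genotypes. *Hmgcs1* (ENSMUSG00000093930, GRCm38 chromosome 13 from 119690462 to 119708086), the cytosolic synthase that makes HMG-CoA, had 490.3, 263 and 515 TMM-normalized CPM (CPM with the library total scaled by its TMM factor) in fed and 122, 98.4 and 119 in fasted livers labelled Nts+/+. The libraries labelled Nts-/- had 1037, 1489.8 and 438 when fed and 99.2, 86.9 and 121 when fasted. The fed and fasted groups were far apart in both genotypes, with fed mice 277 and 303 above all others. *Hmgcs1* was 3.74-fold lower in fasted Nts+/+ livers (log2 fold change -1.90, standard error 0.39, edgeR adjusted *p* = 0.00809). In Nts-/- libraries it was 9.65-fold lower (log2 fold change -3.27, standard error 0.41, edgeR adjusted *p* = 0.000487).

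*Fdps*, which makes farnesyl diphosphate and lies on chromosome 3 from 89093588 to 89101959, had the smallest *p* of all members in both fasting contrasts. Its level was 415, 272 and 259 TMM-normalized CPM in fed and 24.0, 23.9 and 24.2 in fasted livers labelled Nts+/+. In those labelled Nts-/- it was 543, 578 and 304 when fed and 26.1, 16.4 and 27.7 when fasted. The 3 fasted Nts+/+ livers were nearly equal, and every fasted liver lay far below every fed one. The drop was 13.1-fold in Nts+/+ (log2 fold change -3.71, standard error 0.29, edgeR adjusted *p* = 1.5e-05) and 20.3-fold in Nts-/- libraries (log2 fold change -4.34, standard error 0.29, edgeR adjusted *p* = 4.89e-06). *Mvd*, the decarboxylase that forms isopentenyl diphosphate, had 20.6, 25.1 and 28.0 TMM-normalized CPM in fed and 1.85, 2.45 and 4.53 in fasted Nts+/+ livers. It had 54.2, 74.1 and 22.4 in fed and 2.02, 1.17 and 2.93 in fasted livers labelled Nts-/-. Its drop of 23.8-fold in Nts-/- libraries (log2 fold change -4.57, standard error 0.52, edgeR adjusted *p* = 0.000404) was the largest estimate among the members, and in Nts+/+ libraries it was 8.15-fold (log2 fold change -3.03, standard error 0.49, edgeR adjusted *p* = 0.00296). An annotated gene model, *Gm20388*, covers the whole span of *Mvd* in the table, so reads could have been shared between them.

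*Idi1*, the isomerase that follows, fell 8.28-fold in Nts+/+ and 14.4-fold in Nts-/- libraries, from between 152 and 636 TMM-normalized CPM in fed livers to between 19.4 and 39.9 in fasted ones (edgeR adjusted *p* = 0.000963 and 0.000248). *Pmvk*, the second kinase on mevalonate, changed by close amounts in the genotypes, 6.36-fold and 6.48-fold lower (adjusted *p* = 0.000126 and 8e-05, edgeR). *Mvk*, mevalonate kinase, was 3.97-fold lower in Nts+/+ and 6.39-fold lower in Nts-/- fasted livers (edgeR adjusted *p* = 0.000189 and 2.67e-05). *Acat2*, the cytosolic thiolase that joins acetyl-CoA units at the entry of the route, had the smallest fold among the 7 lowered genes in Nts+/+ and Nts-/- libraries, 2.78-fold and 4.52-fold (edgeR adjusted *p* = 0.000582 and 4.86e-05). *Ggps1*, which extends farnesyl diphosphate towards protein prenylation and so leads away from sterols, stayed between 3.26 and 4.81 TMM-normalized CPM in all 12 livers. Its log2 fold change was 0.20 (95% interval from -0.19 to 0.59) in Nts+/+ and 0.100 (from -0.29 to 0.49) in Nts-/- libraries. The span of *Ggps1* overlaps 170 bases of *Arid4b*, a gene with 360% of its counts, so reads could have been shared between them.

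Of the 11 genes from squalene to the last sterol reductions, 9 fell in both genotypes. *Fdft1*, squalene synthase and the first step given to sterols alone, had 144, 99.7 and 149 TMM-normalized CPM in fed and 37.8, 43.2 and 36.0 in fasted Nts+/+ livers. It had 257, 304 and 155 in fed and 41.9, 32.6 and 45.9 in fasted livers labelled Nts-/-. All 6 fed livers lay above all 6 fasted ones. The fold was 3.35 lower in Nts+/+ (log2 fold change -1.75, standard error 0.23, edgeR adjusted *p* = 0.000436) and 5.94 lower in Nts-/- libraries (log2 fold change -2.57, standard error 0.24, edgeR adjusted *p* = 4.02e-05). Its span overlaps 767 bases of *Ctsb*, a lysosomal protease gene with 612% of its counts, so reads could have been shared between them.

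*Sqle*, the squalene epoxidase and a rate-limiting oxygenation step, had 96.4, 70.0 and 115 TMM-normalized CPM in fed and 16.0, 13.7 and 9.46 in fasted Nts+/+ livers. It had 167, 206 and 73.2 (fed) and 11.7, 9.44 and 13.4 (fasted) in livers labelled Nts-/-. The folds were 7.20 lower in Nts+/+ (log2 fold change -2.85, standard error 0.37, edgeR adjusted *p* = 0.000749) and 12.9 lower in Nts-/- libraries (log2 fold change -3.69, standard error 0.38, edgeR adjusted *p* = 0.000167), the largest drops in Nts+/+ livers within this group. *Msmo1*, the methylsterol oxidase, came next with 6.74-fold and 12.1-fold lower levels (edgeR adjusted *p* = 0.00685 and 0.00201). *Nsdhl*, which removes the oxidized methyl groups, was 5.61-fold and 7.74-fold lower (edgeR adjusted *p* = 0.00223 and 0.000831). *Cyp51*, the lanosterol demethylase, was 4.53-fold and 7.35-fold lower (edgeR adjusted *p* = 0.000553 and 0.0001). These enzymes act one after another on lanosterol and its products. *Lss*, lanosterol synthase, had 67.9, 59.4 and 46.9 TMM-normalized CPM in fed and 20.6, 20.6 and 17.1 in fasted Nts+/+ livers, and 126, 141 and 67.7 (fed) and 16.5, 16.3 and 14.3 (fasted) in those labelled Nts-/-. It fell 2.99-fold in Nts+/+ (log2 fold change -1.58, standard error 0.23, edgeR adjusted *p* = 0.000755) and 7.13-fold in Nts-/- libraries (log2 fold change -2.83, standard error 0.24, edgeR adjusted *p* = 2.3e-05).

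*Sc5d*, a sterol desaturase, was 3.08-fold lower in Nts+/+ and 4.45-fold lower in Nts-/- fasted livers (edgeR adjusted *p* = 0.000333 and 4.97e-05). *Dhcr7*, the reductase that yields cholesterol from its direct precursor, was 2.63-fold lower in Nts+/+ libraries (edgeR adjusted *p* = 0.0177, and 0.0658 without mouse 254) and 6.35-fold lower in Nts-/- libraries (edgeR adjusted *p* = 0.000692). *Ebp*, the sterol isomerase, had the smallest fold of the 9 lowered genes in both, 1.72 and 1.67 (edgeR adjusted *p* = 0.0024 and 0.00322). Its fed livers still lay above its fasted ones, from 235 to 313 against 142 to 184 TMM-normalized CPM. The 2 genes of this group that did not pass were both reductases. *Tm7sf2*, a sterol reductase, had log2 fold changes of -0.48 and -0.48 (edgeR adjusted *p* = 0.0865 and 0.0888), and passed without mouse 265 in Nts+/+ (-0.62, adjusted *p* = 0.0488, edgeR) or mouse 319 in Nts-/- libraries (-0.59, adjusted *p* = 0.0489, edgeR). *Hsd17b7*, a sterol ketoreductase, had 50.4, 39.8 and 80.7 TMM-normalized CPM in fed and 66.3, 87.8 and 61.0 in fasted Nts+/+ livers, and 121, 139 and 58.4 (fed) and 67.1, 82.8 and 55.8 (fasted) in those labelled Nts-/-. Fed and fasted livers overlapped in both genotypes, and the log2 fold changes had opposite signs, 0.33 and -0.63 (edgeR adjusted *p* = 0.534 and 0.224). Without mouse 319 the second was -0.92 (adjusted *p* = 0.0376, edgeR).

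**Figure D2:**
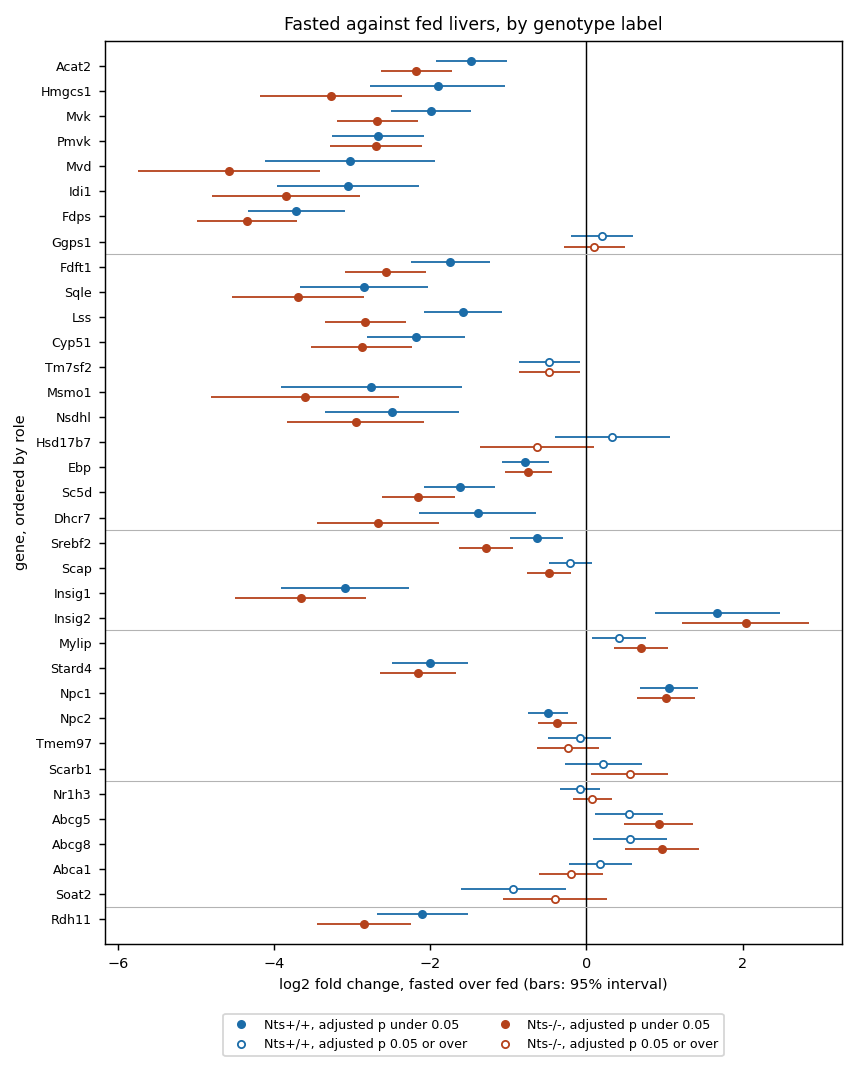
Log2 fold change of fasted over fed livers (x axis) for each gene (y axis), in libraries labelled Nts+/+ (blue) and Nts-/- (orange-red), with 95% intervals from the edgeR fit as bars. Filled points passed an adjusted *p* of 0.05 and open points did not. The 16 enzymes that fell lie between -0.74 (*Ebp*, Nts-/-) and -4.57 (*Mvd*, Nts-/-), and *Insig2* and *Npc1* lie to the right of 0 in both.

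The 4 genes that control SREBP2 moved in different directions. *Srebf2*, which encodes SREBP2, had 67.6, 62.1 and 66.2 TMM-normalized CPM in fed and 38.2, 47.7 and 40.0 in fasted Nts+/+ livers, and 101, 95.6 and 69.9 (fed) and 36.3, 30.3 and 42.7 (fasted) in those labelled Nts-/-. It fell 1.56-fold in Nts+/+ (log2 fold change -0.64, standard error 0.16, edgeR adjusted *p* = 0.0142) and 2.44-fold in Nts-/- libraries (log2 fold change -1.29, standard error 0.16, edgeR adjusted *p* = 0.000176). The first call was lost without mouse 254 (adjusted *p* = 0.0534, edgeR) or mouse 265 (adjusted *p* = 0.0546, edgeR), although fed and fasted livers did not overlap. *Scap*, the escort protein, had a log2 fold change of -0.21 in Nts+/+ (adjusted *p* = 0.294, edgeR) and -0.48 in Nts-/- libraries (adjusted *p* = 0.0216, edgeR). The second was above 0.05 without mouse 277, 303 or 284 (adjusted *p* = 0.1, 0.0515 and 0.0895, edgeR).

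The INSIG genes went opposite ways. *Insig1* (chromosome 5 from 28071363 to 28078662), itself a target of SREBP2, had 333, 548 and 299.6 TMM-normalized CPM in fed and 50.2, 39.6 and 48.6 in fasted Nts+/+ livers. In those labelled Nts-/- it had 505, 690.0 and 431 when fed and 45.9, 21.5 and 61.0 when fasted. It fell 8.53-fold in Nts+/+ (log2 fold change -3.09, standard error 0.37, edgeR adjusted *p* = 0.000426) and 12.6-fold in Nts-/- libraries (log2 fold change -3.66, standard error 0.38, edgeR adjusted *p* = 0.000141). *Insig2* (chromosome 1 from 121304353 to 121332589), whose product also retains SCAP, had 256, 167 and 440.4 TMM-normalized CPM in fed and 1311, 753 and 695 in fasted Nts+/+ livers. It had 248, 169 and 178 in fed and 968, 893 and 585 in fasted livers labelled Nts-/-. It rose 3.20-fold in Nts+/+ (log2 fold change 1.68, standard error 0.36, edgeR adjusted *p* = 0.00984) and 4.11-fold in Nts-/- libraries (log2 fold change 2.04, standard error 0.37, edgeR adjusted *p* = 0.00393). Every fasted liver was above every fed liver for *Insig2* and below every fed liver for *Insig1*. The table holds 1 value per gene, so transcripts of *Insig2* from different starts are summed.

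**Figure D3:**
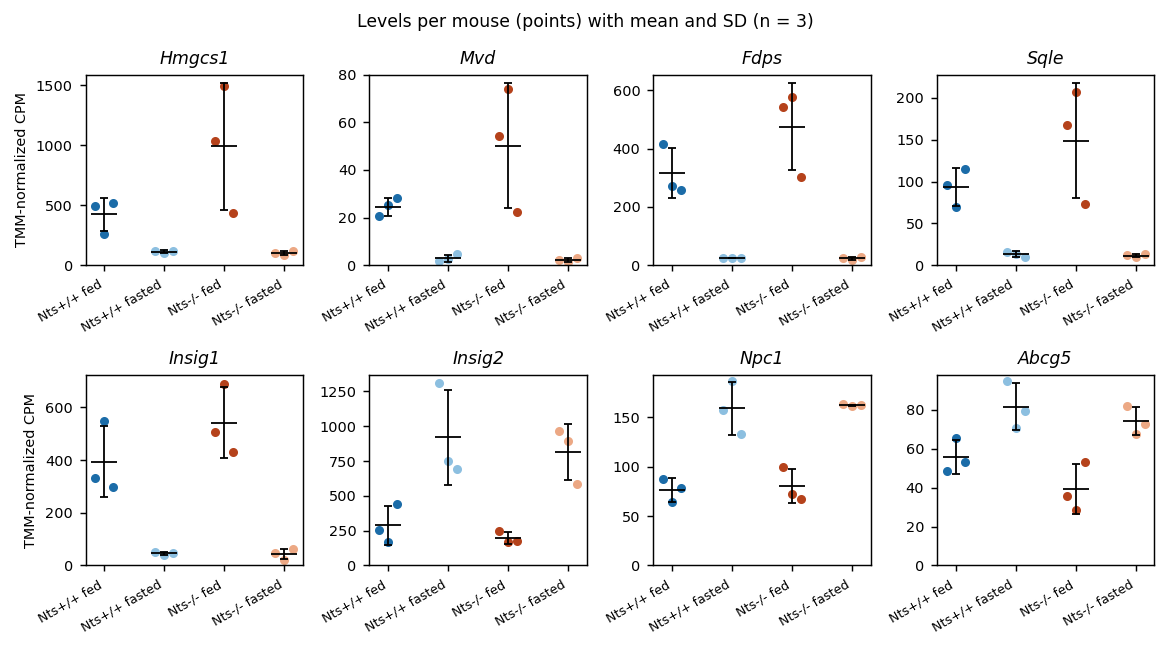
TMM-normalized CPM (y axis, from 0) of 8 genes in each mouse (points) of the 4 labelled groups (x axis), with the group mean and SD (n = 3) in black. The 4 enzymes of the upper row and *Insig1* are high in fed livers, where 2 of 3 Nts-/- mice stand above the third, while *Insig2*, *Npc1* and *Abcg5* are higher in fasted livers.

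Because these members moved together, the bases before their starts were looked at in RefSeq promoter windows of GRCm38.p6 (300 bases, from 250 before to 50 after an annotated start). Windows were given for 28 of the 35 members, 37 windows in all. Some members gave more than 1 window, and 7 gave none, among them *Fdps*, *Sqle*, *Fdft1* and *Stard4*. The set of all windows was not restricted to genes tested in these livers, so the shares below do not compare like with like. The letters TCACNCCAC (a form of the sterol regulatory element), CCAAT (bound by NF-Y) and GGGCGG (bound by Sp1 family factors) were searched on both strands. NF-Y and Sp1 are known partners of SREBP2. TCACNCCAC was in 1 member window (2.7%), that of *Hmgcs1*, and in 1.24% of all 32851 windows. CCAAT was in 24 member windows (64.9%) beside 37.4% of all, and GGGCGG in 25 (67.6%) beside 35.7%. In the 21 windows of the 17 matched genes that fell in both genotypes, CCAAT and GGGCGG were each in 16 (76.2%). The 3 windows below show *Hmgcs1*, which holds the element, and the INSIG pair, which moved in opposite directions and was chosen after its values were seen. Capitals mark these letters or their complement (ATTGG and CCGCCC), and a match is a description of the letters only.
Hmgcs1, chr13:119690101-119690400, plus strand: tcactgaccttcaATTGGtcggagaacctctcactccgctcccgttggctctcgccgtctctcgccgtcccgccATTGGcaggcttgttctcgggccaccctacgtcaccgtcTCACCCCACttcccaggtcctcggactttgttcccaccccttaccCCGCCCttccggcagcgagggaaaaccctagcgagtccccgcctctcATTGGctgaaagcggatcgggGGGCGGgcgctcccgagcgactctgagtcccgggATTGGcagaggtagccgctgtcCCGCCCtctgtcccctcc
Insig1, chr5:28071162-28071461, plus strand: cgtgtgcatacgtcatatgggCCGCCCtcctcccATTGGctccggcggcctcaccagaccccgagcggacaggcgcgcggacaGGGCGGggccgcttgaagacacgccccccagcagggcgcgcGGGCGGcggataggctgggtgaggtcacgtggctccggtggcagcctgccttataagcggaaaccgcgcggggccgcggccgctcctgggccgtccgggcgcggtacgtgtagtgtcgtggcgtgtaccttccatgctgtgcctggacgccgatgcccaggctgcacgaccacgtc
Insig2, chr1:121332540-121332839, minus strand: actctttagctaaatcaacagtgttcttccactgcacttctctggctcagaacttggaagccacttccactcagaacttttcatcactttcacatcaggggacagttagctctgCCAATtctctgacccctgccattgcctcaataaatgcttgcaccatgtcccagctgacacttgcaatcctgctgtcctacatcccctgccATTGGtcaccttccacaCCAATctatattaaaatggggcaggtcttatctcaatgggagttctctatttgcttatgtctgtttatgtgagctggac
In *Hmgcs1* the element TCACCCCAC lay 137 to 129 bases before the annotated start, with 4 CCAAT and 3 GGGCGG matches around it. *Insig1* held 1 CCAAT and 3 GGGCGG matches. This *Insig2* window, the most upstream of 3 in RefSeq, held 3 CCAAT matches and no GGGCGG, while each of the other two held 1 GGGCGG and no CCAAT.

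Among the 6 genes of uptake and movement inside the cell, *Stard4* and *Npc2* fell and *Npc1* rose in both genotypes. *Stard4*, a cytosolic sterol carrier, had 91.9, 107 and 128 TMM-normalized CPM in fed and 29.7, 27.3 and 24.7 in fasted Nts+/+ livers, and 141, 157 and 100.4 (fed) and 29.0, 21.0 and 39.2 (fasted) in those labelled Nts-/-. It was 4.00-fold lower in Nts+/+ (log2 fold change -2.00, standard error 0.22, edgeR adjusted *p* = 0.000149) and 4.46-fold lower in Nts-/- libraries (log2 fold change -2.16, standard error 0.23, edgeR adjusted *p* = 7.18e-05). NPC1 and NPC2 hand over cholesterol in sequence at the lysosome. *Npc1* had 87.1, 63.9 and 78.1 TMM-normalized CPM in fed and 157, 187 and 133 in fasted Nts+/+ livers, and 99.6, 72.7 and 67.6 (fed) and 163, 161 and 162 (fasted) in those labelled Nts-/-. It rose 2.08-fold (log2 fold change 1.06, standard error 0.17, edgeR adjusted *p* = 0.00122) and 2.03-fold (log2 fold change 1.02, standard error 0.17, edgeR adjusted *p* = 0.00141), while its partner *Npc2* was slightly lower. The log2 fold change of *Npc2* was -0.49 in Nts+/+ (adjusted *p* = 0.0123, edgeR) and -0.37 in Nts-/- libraries (adjusted *p* = 0.045, edgeR). Leaving out any 1 mouse of the Nts-/- groups ended the second call (adjusted *p* from 0.0622 to 0.182, edgeR), and leaving out mouse 282 the first (0.0769, edgeR adjusted). With all mice kept, the second was also lost with RLE scaling, no count filter or the groups compared alone (edgeR adjusted *p* from 0.0558 to 0.112).

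*Mylip*, a ubiquitin ligase that LXR induces and that sends lipoprotein receptors to degradation, had 10.8, 10.6 and 9.75 TMM-normalized CPM in fed and 13.2, 13.3 and 15.2 in fasted Nts+/+ livers, and 10.3, 7.42 and 7.82 (fed) and 13.7, 16.3 and 11.7 (fasted) in those labelled Nts-/-. It rose in Nts-/- libraries (1.62-fold, edgeR adjusted *p* = 0.01), and in Nts+/+ libraries the fold was 1.34 (adjusted *p* = 0.0866, edgeR), with no overlap of fed and fasted livers in either. The difference between these responses was 0.28 (95% interval from -0.21 to 0.76, edgeR adjusted *p* = 0.901). *Scarb1*, the hepatic receptor for high-density lipoprotein, had log2 fold changes of 0.22 (95% interval from -0.28 to 0.71) and 0.55 (from 0.057 to 1.05), and mouse 295 alone reached 271 TMM-normalized CPM beside 97.5 to 185 in the other 11. *Tmem97*, which binds NPC1, stayed between 56.0 and 93.0 TMM-normalized CPM, with log2 fold changes of -0.087 and -0.24.

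The 2 biliary sterol exporters rose with fasting in livers labelled Nts-/-. *Abcg5* and *Abcg8* encode the partners of the transporter that moves sterols into bile. *Abcg5* had 48.4, 65.6 and 53.2 TMM-normalized CPM in fed and 94.5, 70.8 and 79.4 in fasted Nts+/+ livers, and 35.7, 28.2 and 53.3 (fed) and 82.0, 67.6 and 72.8 (fasted) in those labelled Nts-/-. *Abcg8* had 49.4, 67.7 and 53.3 in fed and 102, 68.3 and 80.2 in fasted Nts+/+ livers, and 45.0, 27.3 and 53.0 (fed) and 74.1, 81.2 and 89.3 (fasted) in those labelled Nts-/-. For both genes every fasted liver was above every fed liver of its genotype. In Nts-/- libraries *Abcg5* rose 1.90-fold (log2 fold change 0.92, standard error 0.20, edgeR adjusted *p* = 0.00817) and *Abcg8* rose 1.95-fold (log2 fold change 0.97, standard error 0.22, edgeR adjusted *p* = 0.0103). In Nts+/+ libraries the folds were 1.46 and 1.47 and did not pass (edgeR adjusted *p* = 0.0774 and 0.0965), though *Abcg5* did in a fit of those 6 libraries alone (0.0459, edgeR adjusted). The responses of the 2 genes were not shown to differ between genotypes (difference 0.38 and 0.41, edgeR adjusted *p* = 0.901 for both). Their spans overlap by 6710 bases, so their values are not fully independent.

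The other genes of this group did not pass. *Abca1*, which loads cholesterol on nascent high-density lipoprotein and is a classical LXR target, had log2 fold changes of 0.18 (95% interval from -0.23 to 0.59) and -0.20 (from -0.61 to 0.21). *Nr1h3*, which encodes LXRα, stayed between 88.7 and 117 TMM-normalized CPM, with log2 fold changes of -0.084 (from -0.34 to 0.17) and 0.075 (from -0.18 to 0.33). *Soat2*, which esterifies cholesterol in the liver, had 48.6, 39.1 and 25.3 TMM-normalized CPM in fed and 22.7, 11.4 and 25.0 in fasted Nts+/+ livers. Its log2 fold change there was -0.94 (edgeR adjusted *p* = 0.0551), and passed without mouse 323 (-1.15, adjusted *p* = 0.0227, edgeR), without mouse 322 (-1.15, adjusted *p* = 0.0454, edgeR), and with DESeq2 (-0.93, adjusted *p* = 0.00977), upper-quartile scaling (-0.98, adjusted *p* = 0.0487) or a minimum of 10 counts (-0.95, adjusted *p* = 0.0494). In Nts-/- libraries it was -0.41 (adjusted *p* = 0.397, edgeR). *Rdh11*, a retinal reductase that is also known as a gene controlled by SREBP, fell 4.29-fold in Nts+/+ (log2 fold change -2.10, standard error 0.27, edgeR adjusted *p* = 0.000436) and 7.19-fold in Nts-/- libraries (log2 fold change -2.85, standard error 0.28, edgeR adjusted *p* = 7.11e-05).

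Neighbouring steps were read from lists of other genes of the same biology, most of them short. Their counts stand beside the 18.1% (Nts+/+) and 16.8% (Nts-/-) of all genes that passed. Of 5 genes that supply acetyl-CoA, 4 fell and 1 rose in both genotypes. *Acly*, which splits citrate, had log2 fold changes of -2.28 and -2.85 (edgeR adjusted *p* = 0.000906 and 0.000213), and the citrate carrier *Slc25a1* -0.78 and -0.96 (edgeR adjusted *p* = 0.00288 and 0.000641). *Acss2*, which activates acetate, also fell in Nts+/+ libraries (-2.49, edgeR adjusted *p* = 0.012, and 0.054 without mouse 282). *Acat1*, the mitochondrial thiolase, rose in Nts-/- libraries (0.84, edgeR adjusted *p* = 0.00453). Of 11 genes of the nonsterol branches of mevalonate (prenylation, ubiquinone and dolichol), 0 passed in Nts+/+ libraries and 2 fell in Nts-/- libraries, *Pdss2* (-0.51, edgeR adjusted *p* = 0.0342) and *Dhdds* (-0.42, edgeR adjusted *p* = 0.0377). The call of *Dhdds* was lost without any 1 of the 6 mice (edgeR adjusted *p* from 0.0514 to 0.113) and with no count filter (0.0724, edgeR adjusted). That of *Pdss2* was lost without mouse 277, 319, 284 or 290 (edgeR adjusted *p* from 0.053 to 0.162), with no count filter (0.0625, edgeR adjusted) and with the groups compared alone (0.0718, edgeR adjusted). The 11 genes from squalene on and the nonsterol list had median log2 fold changes of -1.62 against 0.014 in Nts+/+ and -2.67 against -0.17 in Nts-/- libraries. Of 9 genes of SREBP processing and degradation, 2 rose and 2 fell in Nts+/+ libraries and 3 fell in Nts-/- libraries. *Srebf1*, the SREBP of fatty acid synthesis, had the smallest *p* in both (-2.90 and -3.32, edgeR adjusted *p* = 0.000622 and 0.000254). *Erlin1* also fell in both, with its Nts+/+ call lost without mouse 254, 257, 265 or 282 (edgeR adjusted *p* from 0.0584 to 0.0856). Its Nts-/- call was lost without mouse 303, 319, 284 or 290, or with the groups compared alone (edgeR adjusted *p* from 0.0517 to 0.0855). That of *Erlin2*, which fell only there, was lost without mouse 277, 303, 284, 290 or 295, with RLE scaling, no count filter or the groups compared alone (edgeR adjusted *p* from 0.0519 to 0.174).

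Of 10 other genes of sterol movement and esters, 3 rose in both genotypes, *Lcat*, *Stard5* and *Nceh1*. *Nceh1*, a cholesteryl ester hydrolase, had log2 fold changes of 1.04 and 1.19 (edgeR adjusted *p* = 0.0233 and 0.0136), and the first call was lost without mouse 254, 257, 282 or 322 (edgeR adjusted *p* from 0.0639 to 0.0934). *Stard5* lost its call in Nts+/+ libraries without mouse 254, 257 or 282 (edgeR adjusted *p* from 0.0525 to 0.0685). *Lcat* lost it in Nts+/+ libraries without mouse 254 (0.0542, edgeR adjusted), and in Nts-/- libraries without mouse 277, 303, 284, 290 or 295 (edgeR adjusted *p* from 0.0575 to 0.131), with no count filter (0.0667, edgeR adjusted) and with the groups compared alone (0.0798, edgeR adjusted). Of 6 partners of lipoprotein uptake, 2 fell in Nts+/+ and 3 in Nts-/- libraries. These were *Lipc* and *Pdzk1* in both, and *Sort1*, which encodes sortilin, a receptor of neurotensin, in Nts-/- libraries (-0.99, edgeR adjusted *p* = 0.00864). In Nts+/+ libraries *Sort1* was at -0.39, and the difference between the genotypes did not pass (-0.60, edgeR adjusted *p* = 0.897). *Pdzk1* lost its call in Nts+/+ libraries without mouse 282 (0.0512, edgeR adjusted), and in Nts-/- libraries without mouse 277, 303, 319, 284 or 290 (edgeR adjusted *p* from 0.0595 to 0.143), with no count filter (0.0614, edgeR adjusted) and with the groups compared alone (0.0819, edgeR adjusted). *Lipc* lost it in Nts-/- libraries without mouse 277 (0.0526, edgeR adjusted) or 290 (0.0563, edgeR adjusted), and with the groups compared alone (0.0512, edgeR adjusted). Of 8 genes of LXR and bile acid disposal, *Abcb4* and *Cyp8b1* rose and *Abcb11* fell in both genotypes. *Abcb4*, the phospholipid exporter of bile, had log2 fold changes of 1.18 and 1.35, and *Abcb11*, the bile salt export pump, -1.51 and -1.53 (edgeR adjusted *p* from 0.000144 to 0.000436 for the 4 values). Of 8 genes known to respond to feeding and fasting, 2 rose and 3 fell in Nts+/+ libraries, and 4 rose and 3 fell in Nts-/- libraries.

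The comparison of genotypes asked whether these genes differ between libraries labelled Nts-/- and Nts+/+. In fed livers 0 of 35 members passed (0% of all 13812 genes, edgeR), and 0 passed with DESeq2. The smallest adjusted *p* among the members in DESeq2 was 0.0561, for *Lss*. At an unadjusted *p* under 0.05 there were 13 members in edgeR (37.1%, beside 6.34% of all genes). Of these, 12 were higher in Nts-/- libraries (beside 3.02% of all genes) and 1 was lower (beside 3.32%). DESeq2 gave 16 such members, beside 6.39% of all genes. A fit of the fed libraries alone gave 9, all higher in Nts-/- libraries, beside 5.44% of all genes (edgeR). The member log2 fold changes ran from -0.54 to 1.23 with a median of 0.36, beside 0.010 over all genes tested. The count rested on single mice: it was 4 without mouse 303, 6 without mouse 257 and 7 without mouse 277, and 19 without mouse 319. The share of all genes moved as well, to 4.19%, 4.07%, 4.76% and 12.2% in these 4 fits. The groups did not overlap for 4 members, all higher in Nts-/- libraries (11.4% of the members, beside 10.7% of all genes, 4.81% higher and 5.85% lower). These were *Mvk*, *Fdft1*, *Srebf2* and *Abca1*.

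The 6 members with the smallest *p* in fed livers were *Lss*, *Fdft1*, *Hmgcs1*, *Mvk*, *Acat2* and *Srebf2*. *Lss* averaged 112 ± 38.7 TMM-normalized CPM (SD, n = 3) in fed Nts-/- livers as labelled, against 58.1 ± 10.6 (SD, n = 3) for Nts+/+. Its log2 fold change was 0.94 (95% interval from 0.46 to 1.43, edgeR adjusted *p* = 0.709), and 1.20 (adjusted *p* = 0.0226, edgeR) without mouse 319, whose value of 67.7 lay within the Nts+/+ range. *Hmgcs1* had the largest difference, 1.23 (95% interval from 0.38 to 2.07, edgeR adjusted *p* = 0.734), with 988 ± 528 against 423 ± 139 TMM-normalized CPM (SD, n = 3). *Fdft1* differed by 0.87 (from 0.38 to 1.36), *Mvk* by 0.66 (from 0.18 to 1.14), *Acat2* by 0.60 (from 0.16 to 1.04) and *Srebf2* by 0.45 (from 0.11 to 0.78), with adjusted *p* of 0.715 for *Fdft1* and 0.734 for the other three (edgeR). The 1 member lower at an unadjusted *p* under 0.05 was *Abcg5*, at -0.51 (from -0.95 to -0.075, edgeR adjusted *p* = 0.749), and it was named after its values were seen.

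**Figure D4:**
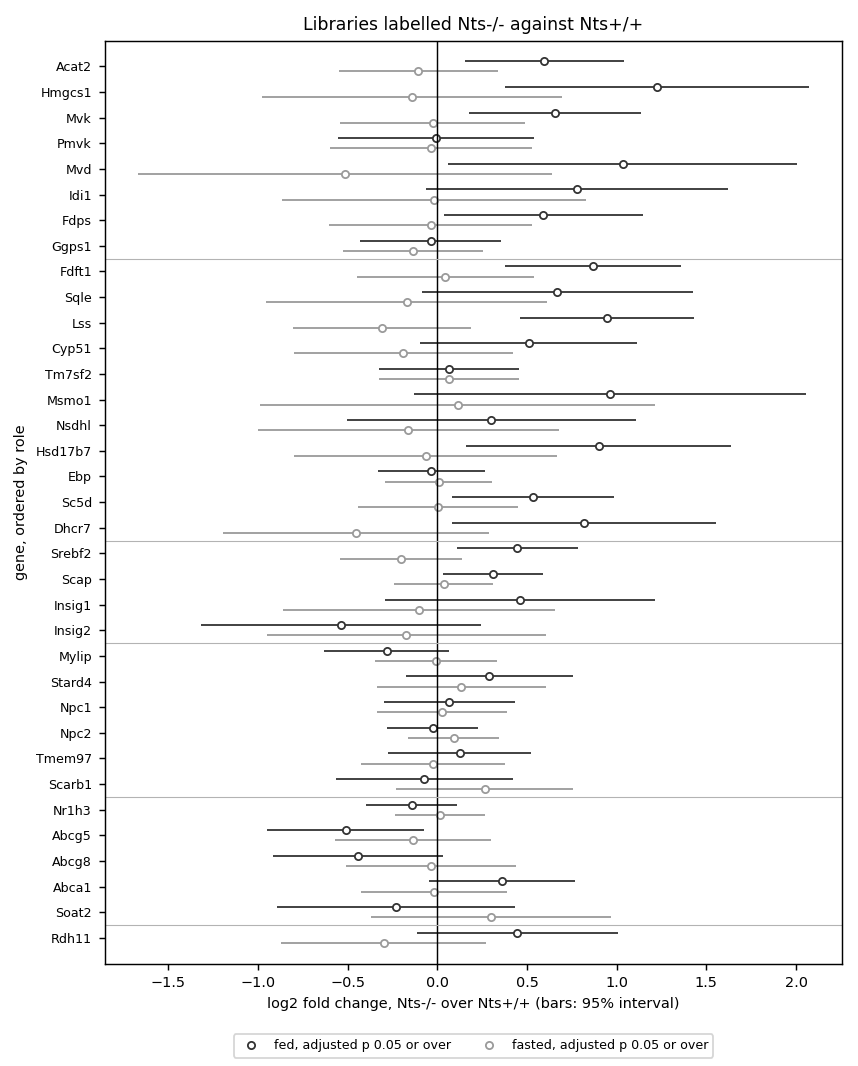
Log2 fold change of libraries labelled Nts-/- over Nts+/+ (x axis) for each gene (y axis), in fed (black) and fasted (grey) livers, with 95% intervals from the edgeR fit as bars. All points are open, since 0 members passed an adjusted *p* of 0.05 in either state. Most enzymes lie right of 0 in fed livers, up to 1.23 for *Hmgcs1*, and near 0 in fasted ones.

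The 3 fed mice labelled Nts-/- were unlike each other. Relative to the mean of the fed Nts+/+ livers, the 19 enzymes had a median log2 level of 0.78 in mouse 277 and 0.94 in mouse 303, and of -0.053 in mouse 319. In mouse 277, 16 of the 19 enzymes were above all 3 fed Nts+/+ livers and 1 was below all 3. In mouse 303, 17 were above and 0 below, and in mouse 319, 2 were above and 3 below. The same counts over all tested genes were not made, so these have no background beside them. The summed level of the 19 enzymes was 5119.9 and 6483 TMM-normalized CPM in mice 277 and 303 and 2988 in mouse 319, beside 3556, 2472 and 3101 in the fed Nts+/+ mice. Mouse 303 was the highest of its group for 18 of the 19 enzymes and mouse 319 the lowest for 18, while over all tested genes mouse 303 was highest for 32.2% and mouse 319 lowest for 40.9%. Other genes set the same mice apart, and those given here were chosen after their values were seen. *Acss2* had 499, 654 and 154 and *Fasn*, fatty acid synthase, 660.5, 688 and 304 TMM-normalized CPM in mice 277, 303 and 319. Mouse 303 also stood alone in *Angptl4*, a lipase inhibitor induced by fasting (118, 27.0 and 116), and *Cyp7a1*, the first enzyme of bile acid synthesis (167, 921 and 55.6). Their part in the enzyme values was not tested. The enzymes varied more between mice than the median gene. Their median coefficient of variation was 32.1% in fed Nts-/- and 24.6% in fed Nts+/+ livers, where that of all tested genes was 15.7% and 14.5%. In fasted livers it was 17.0% and 19.8%, beside 12.9% and 14.4%. *Acss2*, chosen after its values were seen, had a wide spread in both fed groups. It had 436 ± 256 TMM-normalized CPM in fed Nts-/- and 290 ± 162 in fed Nts+/+ livers (SD, n = 3).

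**Figure D5:**
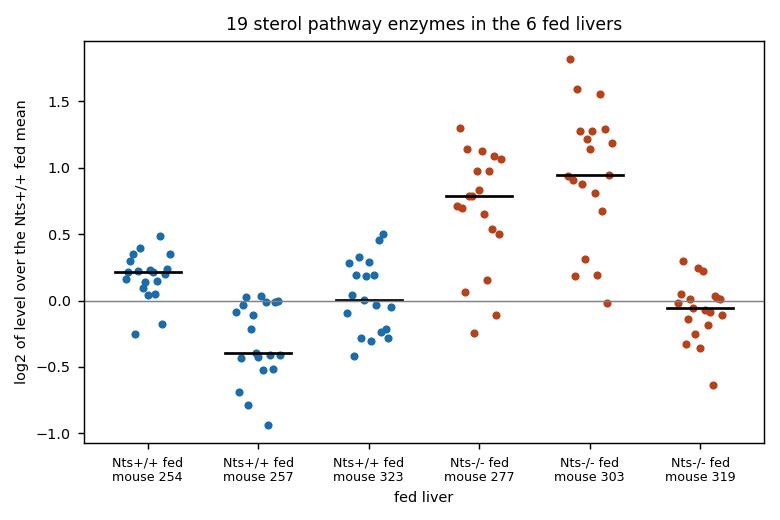
Log2 of each enzyme's TMM-normalized CPM over its mean in the 3 fed livers labelled Nts+/+ (y axis), for 19 enzymes (points, left to right in pathway order) in each of the 6 fed livers (x axis), with the median as a black line. The medians of mice 277 and 303 are at 0.78 and 0.94, and that of mouse 319 is at -0.053, among the Nts+/+ mice at 0.21, -0.39 and 0.0075.

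In fasted livers 0 of 35 members passed between genotypes (0% of all genes, edgeR), 0 passed with DESeq2, and 0 had an unadjusted *p* under 0.05, beside 4.96% of all genes (2.34% higher and 2.62% lower). A fit of the 6 fasted libraries alone gave 2 members at an unadjusted *p* under 0.05, beside 6.38% of all genes, and 0 that passed. The log2 fold changes ran from -0.52 to 0.30 with a median of -0.034. Of the 6 members with the smallest *p*, *Lss* was at -0.31 (95% interval from -0.80 to 0.19) and did not overlap between the groups, *Dhcr7* at -0.45 (from -1.20 to 0.29) and *Srebf2* at -0.20 (from -0.54 to 0.14). *Scarb1* was at 0.26 (from -0.23 to 0.76), *Rdh11* at -0.30 (from -0.87 to 0.27) and *Mvd* at -0.52 (from -1.67 to 0.64), with edgeR adjusted *p* of 0.917 to 0.929 for the 6. The summed level of the 19 enzymes was between 802 and 1017 TMM-normalized CPM in fasted Nts+/+ and between 815 and 937 in fasted Nts-/- livers. In total 3 members did not overlap, all lower in Nts-/- libraries (8.57%, beside 12.2% of all genes, 5.29% higher and 6.88% lower): *Ggps1*, *Lss* and *Rdh11*.

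The fasting responses were then compared with each other. The difference of the responses (Nts-/- minus Nts+/+) had a median of -0.46 over the members, beside -0.020 over all genes, with 26 of 35 values below 0, and it uses the same 6 fed mice as above. In edgeR 0 of 35 members passed (0% of all 13812 genes), and 0 did with DESeq2. At an unadjusted *p* under 0.05 there were 7, all below 0, and 9 with DESeq2, beside 4.8% of all genes in both tests. The 7 were 20% of the members, beside 2.56% of all genes above and 2.24% below 0 (edgeR). There were 2 without mouse 257, 2 without mouse 303, 3 without mouse 290, 4 without mouse 277 and 15 without mouse 319, 14 of them below 0. The share of all genes was 5.23%, 3.53%, 4.89%, 3.05% and 11.6% in these 5 fits. *Lss* had the smallest *p*, with a difference of -1.25 (95% interval from -1.94 to -0.56, edgeR adjusted *p* = 0.897). *Srebf2* was at -0.65 (from -1.13 to -0.17), *Dhcr7* at -1.27 (from -2.32 to -0.23), *Fdft1* at -0.82 (from -1.52 to -0.13), *Hmgcs1* at -1.37 (from -2.56 to -0.18) and *Acat2* at -0.70 (from -1.33 to -0.076), with the same edgeR adjusted *p* of 0.897. So the larger folds of these genes in Nts-/- libraries were not shown to differ from those in Nts+/+ libraries.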

How the data were processed

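Liver RNA of 12 mice was sequenced. Per the labels, the authors used Trimmomatic and RSEM with GRCm38, and deposited one table of expected counts (estimated reads per gene, not always whole and not scaled between mice); versions and annotation are not given in the sources used here. All sample columns were matched to mice (0 others). Counts were rounded. In R 4.3.3, edgeR 4.0.16 kept 13812 genes (filterByExpr), scaled them with TMM and fitted one mean per group in robust quasi-likelihood tests over all 12 mice, with Benjamini-Hochberg adjustment over all genes and 0.05 as threshold. TMM-normalized CPM are not per length, so levels are not compared between genes. Standard errors are the log2 fold change over the root of *F*. Floors of 3 counts cover counting error only. Of the 35 members, *Mvd*, *Ggps1*, *Fdft1*, *Cyp51*, *Tm7sf2*, *Npc1*, *Abcg5* and *Abcg8* overlap a gene with at least 10% of their counts, and whether strand was used is not stated.

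The members, lists, tests and naming rule were chosen with earlier results of these data known. Named were all members for fasting, the 6 members with the smallest *p* in each genotype contrast, and up to 3 called genes per neighbouring list, the latter only in part, and some named genes are not reported here. The alternatives were RLE and upper-quartile scaling, the Wald test of DESeq2 1.42.0, dropping the count filter, a minimum of 10 counts per library, a fit of the compared groups alone, and leaving out each mouse. The edgeR test was first tested on simulated data. Each library is 1 mouse. Promoters are from RefSeq.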

Additional observations from a re-analysis of the deposited data

How the results depend on the processing

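No paired analysis was possible because every mouse has its own number and no number is shared between groups. Over RLE and upper-quartile scaling, DESeq2, no count filter, at least 10 counts per library and only the groups compared, the number of members called stayed within 1.5 times in every comparison, and the median of the members kept its direction. Leaving out 1 mouse at a time, 21 to 24 members were called for fasting in Nts+/+ and 25 to 28 in Nts-/- libraries, with medians from -1.51 to -1.17 and from -2.32 to -1.90. Between genotypes in fed livers, 0 to 1 members were called, the 1 being *Lss* without mouse 319, with medians from 0.23 (without mouse 303) to 0.59 (without mouse 319). In fasted livers 0 were called, and the median went from -0.11 to 0.015, where it changed sign without mouse 265. For the difference of the responses 0 were called, with medians from -0.71 to -0.27. *Scarb1* between genotypes in fasted livers went from -0.048 (without mouse 295, changed in sign) to 0.43 (without mouse 284), and the cause was not tested. Of the values for single genes, 1446 kept direction and side of the threshold, 73 lost a call and 10 gained one.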

Other observations

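Within the fed Nts+/+ group, *Insig1* did not follow the enzymes. Mouse 257 had the highest *Insig1* level of the 3 (548 TMM-normalized CPM, against 333 and 299.6) and the lowest level for 11 of the 19 enzymes, where over all tested genes it was the lowest for 33.8%. Among the fed mice labelled Nts-/-, *Insig1* ran in the order of the enzymes, highest in mouse 303 and lowest in mouse 319. *Abcg5* and *Abcg8* ran the other way there, with their lowest values in mouse 303 (28.2 and 27.3) and their highest in mouse 319 (53.3 and 53.0). In the fasted group labelled Nts-/-, mouse 290 had the lowest *Insig1* (21.5, against 45.9 and 61.0) and the lowest value for 13 of the 19 enzymes, beside 34.3% of all tested genes. These orders were seen after the values and were not tested.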
